A study of Mus musculus with 22 samples.

Results

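The genes described here are Gata3, Tcf7, Ikzf1, Runx1, Myb and Etv6, 6 transcription factor genes of T-cell development. Their probes were taken by name alone: a probe was counted to a gene when the array files give it that gene's symbol. Ikzf1 stands there under its older name Zfpn1a1. The 6 genes themselves were chosen with earlier results of these data known. The 6 genes are among 24618 autosomal genes on the array, 12986 of them with at least 3 probes, and they hold 67 of the 220065 autosomal probes. Genomic DNA of thymocytes from 22 mice deficient in Atm, a kinase activated when both strands of DNA break, was labelled red (Cy5) and hybridised with DNA of wildtype thymocytes labelled green (Cy3), with 1 array per mouse. In 8 mice a T-cell lymphoma of the thymus was recorded, and 14 mice, called no-lymphoma mice here, showed no finding to the naked eye. By their labels both groups carry the Atm deficiency, and the wildtype DNA served as the reference channel of each array. No mouse was treated. The strain, age and sex of the mice, the altered part of Atm and the number of mice behind the wildtype DNA are not stated in any source used here. Mice are numbered within their group by the order of deposit.

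GATA3, TCF7, RUNX1, MYB and IKZF1 bind DNA and switch on or hold back the genes by which a blood progenitor becomes a T cell in the thymus. TCF7 acts below Notch signalling in early thymocytes, and GATA3 is needed for commitment to the T lineage and for the CD4 lineage. RUNX1 works with its partner CBFB in stem cells and thymocytes, MYB keeps progenitors dividing, ETV6 is an ETS-family repressor needed by blood stem cells, and IKZF1 (Ikaros) restrains growth of developing lymphocytes. Deletions of Ikzf1 are known from mouse thymic lymphomas, and changes of RUNX1, GATA3, ETV6 and MYB from human T-cell leukaemia.

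Each probe was read as the log2 ratio of red (Atm-deficient) to green (wildtype) signal, centred on the autosomal median of the array, so 0 is that median, taken as the wildtype level. The median need not be the unchanged level in an array with many changes. With centring on the mode in its place, the stretch over Tcf7 in lymphoma mouse 3 moved from 0.14 to 0.25. The probes of a gene were averaged to give its value. The DNA came from all cells of a preparation, so the share of cells with a change and its size per cell cannot be told apart. DNA carries no expression, so the cell type of the preparations was not checked by markers.

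Some probes named in the descriptions below are printed as the array files hold them, 5′ to 3′. All are in lower case because no part of a probe was treated differently from the rest. The files do not give the strand, and no source used here names the build of their coordinates. In Runx1, the first probe is the one with the largest difference between the groups, the second the one with the smallest, and the last pair are the probes that were low in lymphoma mouse 6. On chromosome 11, the probes are the last one of a lost stretch, the first one of the stretch that holds Ikzf1 in no-lymphoma mouse 11 and the last one of that stretch, which lies in Ikzf1.
Runx1 at chr16:92690380-92690439: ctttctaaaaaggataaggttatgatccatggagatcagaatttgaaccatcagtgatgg
Runx1 at chr16:92727013-92727072: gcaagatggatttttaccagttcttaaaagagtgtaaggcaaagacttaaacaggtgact
Runx1 at chr16:92738587-92738646: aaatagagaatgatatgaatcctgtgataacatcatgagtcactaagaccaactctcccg
Runx1 at chr16:92743311-92743370: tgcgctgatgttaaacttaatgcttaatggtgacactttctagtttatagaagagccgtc
AK015778 at chr11:11574743-11574802: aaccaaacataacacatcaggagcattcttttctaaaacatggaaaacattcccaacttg
no gene name at chr11:11588109-11588168: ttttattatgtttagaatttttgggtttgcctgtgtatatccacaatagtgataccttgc
Ikzf1 at chr11:11713339-11713398: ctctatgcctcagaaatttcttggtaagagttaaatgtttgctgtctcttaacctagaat

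All printed probes are 60 bases long. The DNA had been cut with AluI, which reads AGCT, and RsaI, which reads GTAC, and both motifs read the same on either strand. None of the 67 member probes holds either motif, against 77 of 220065 autosomal probes (0.035%). The median GC content was 36.7% in the member probes and in all autosomal probes. The median SD of a probe over the 22 arrays was 0.31 for the member probes and 0.26 for all.

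The noise of an array, the spread between neighbouring probes, was 0.15 to 0.37 for the lymphoma mice and 0.13 to 0.55 for the others, and precision is limited by how many arrays a group has. A probe of Atm that differed from the wildtype DNA in most arrays lay between 0.95 and 1.32 in the lymphoma arrays. The array labelled no-lymphoma mouse 1 had the opposite sign (-1.08), as did those labelled mouse 3 (-0.72) and mouse 4 (-0.63), and those labelled mouse 5 (0.44) and mouse 6 (0.08) were low, the latter near the wildtype level. For these 5 arrays the probe does not bear out the label. The Atm probe was highest of all in no-lymphoma mouse 9 (1.69), and in mouse 14 (0.67) it was also below the lymphoma range. Over all autosomal probes, 8 of 231 pairs of arrays correlated below -0.3, the lowest at -0.48, and each pair held the array labelled no-lymphoma mouse 3 or 4 or that of mouse 9. The dyes stated in the labels were kept for each array. The comparisons of the groups are given with and without no-lymphoma mice 3, 4 and 9, and the segment calls also without the 5 arrays of a low or opposite Atm probe.

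Runx1 was called gained in 1 mouse, lymphoma mouse 1, in which its DNA was 3.77 times the wildtype level. With normexp background correction or centring on the mode it was called in lymphoma mouse 3 too (0.26 and 0.32). The gene lies at chr16:92659113-92743370 in the files and has 12 probes. Its value was 1.91 in lymphoma mouse 1, and all of its 12 probes lay between 1.65 and 2.16 there. In the other lymphoma mice it was 0.13, 0.17, 0.25, 0.05, -0.22, 0.13 and 0.29 in the order of mice 2 to 8. In the 14 no-lymphoma mice it ran from -0.31 to 0.41 with a median of -0.02. Lymphoma mouse 1 thus stood alone, and the other 7 lymphoma mice lay inside the range of the no-lymphoma mice.

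The gain over Runx1 in lymphoma mouse 1 reached from 65828317 to 98465647, the last probe of chromosome 16, over 32.6 Mb in 12 segments. Its level changed in steps around the gene. It was 0.59 from 89913895 to 91897419, 2.38 over 85 probes from 91908690 to 92532958, and 1.89 over 61 probes from 92537877 to 93284866, the segment with Runx1. Beyond it the rest of the chromosome stood at 1.29. The segment with Runx1 also held Clic6, a chloride channel gene (1.81), and the transcript records AK145098 (1.85) and AK131747 (1.92). The highest segment of the chromosome was another one, at 2.63 from 69373594 to 71050677 with Gbe1, the glycogen branching enzyme gene (2.70). The gene therefore did not stand above its surroundings: the median of its flanks, the probes within 1 Mb on either side, was 1.91 as well, and the gene minus its flanks was -0.00. With flanks of 0.5 Mb that difference was -0.26, and with flanks of 2 Mb it was 0.65, since the step into the high stretch lies between these limits.

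Over all genes, 1.72% of those with at least 3 probes lay in a segment of 1.5 or more in at least 1 lymphoma array. Other lymphoma mice had segments over the middle of Runx1 that were raised by less than the limit of 0.25 at which a gain was called. Lymphoma mouse 8 fell from 0.57 in the segment ending at 92187778 to 0.20 in the one from 92201199 to the chromosome end, which holds Runx1. Lymphoma mouse 3 stood at 0.21 from 87086287 to the chromosome end, lymphoma mouse 7 at 0.16 from 92532912 to 94991148 and lymphoma mouse 4 at 0.14. In lymphoma mouse 2 the first 10 probes of Runx1 lay in a segment at 0.09, and a segment at 0.29, above the limit, ran from the last 2 probes of the gene to 93284866 (38 probes). It does not cover the middle of the gene, where calls were taken, and is not among the calls counted.

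**Figure D1:**
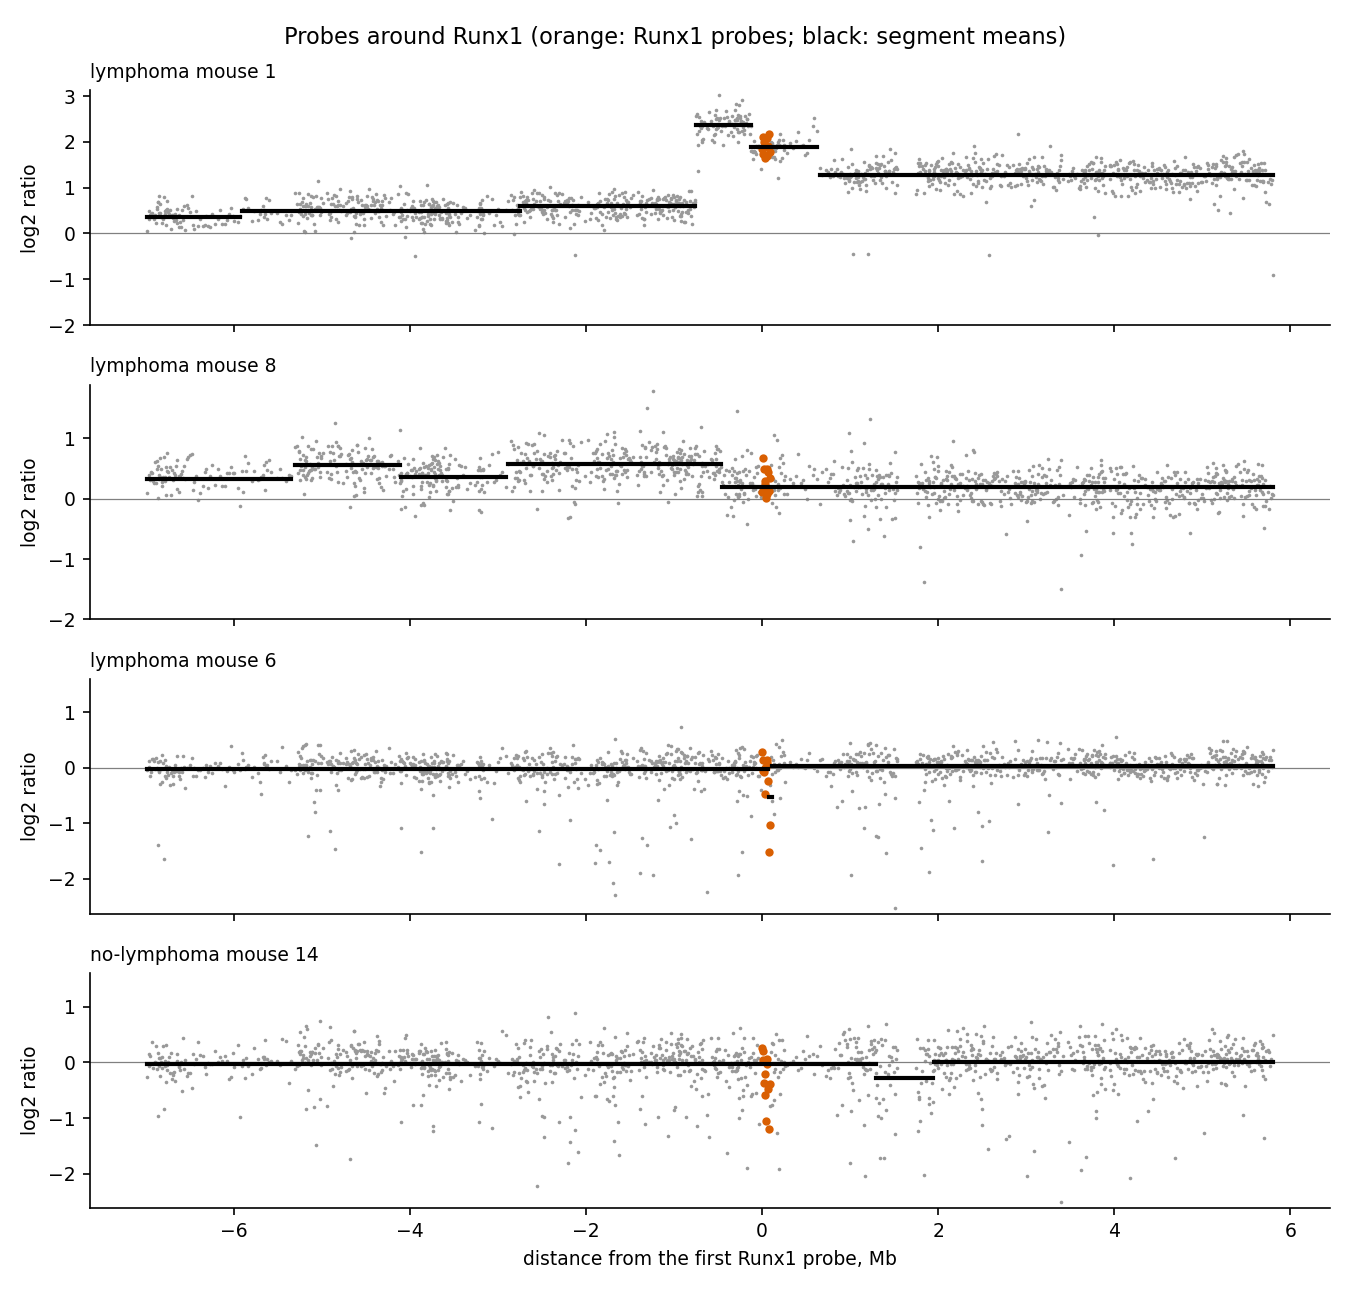
Log2 ratio of each probe (grey points) against its distance in Mb from the first Runx1 probe in 4 mice (lymphoma 1, 8 and 6, no-lymphoma 14), with the 12 Runx1 probes in orange and segment means as black lines. Runx1 sits at 1.89 between stretches of 2.38 and 1.29 in lymphoma mouse 1, at 0.20 just beyond a stretch of 0.57 in lymphoma mouse 8, and its last probes are low in lymphoma mouse 6 and no-lymphoma mouse 14.

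The last part of Runx1 read low in 3 mice. Probes of other genes were low in these mice too, as described below. The part of such shared probe patterns in the low end of Runx1 was not tested. At the last 2 probes, printed above (92738587 and 92743311), lymphoma mouse 6 had -1.52 and -1.03, while the mean of its first 10 probes was -0.01. No-lymphoma mouse 7 had -0.71 and -0.58 at the same probes, and no-lymphoma mouse 14 had -1.20 and -0.38. In the other 19 mice the mean of both probes ran from -0.18 to 1.98. The segmentation found a stretch of 5 probes from 92738587 to 92767285 at -0.53 in lymphoma mouse 6, which begins in Runx1 and ends in AK145098. At its 3 probes in AK145098 lymphoma mouse 6 had -0.30, 0.20 and -0.60, no-lymphoma mouse 7 had -0.30, 0.20 and -0.62, and no-lymphoma mouse 14 had -0.78, 0.18 and -0.77. The fourth probe of the stretch was thus at the same level of 0.18 to 0.20 in all 3 mice, between probes that were low. With background correction by normexp the mean of the last 2 probes was -0.65, -0.30 and -0.29 in these 3 mice.

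Ikzf1 was called lost in no-lymphoma mouse 2 and gained in the array labelled no-lymphoma mouse 1, and it was called in no lymphoma mouse. The gene lies at chr11:11647055-11721947 and has 11 probes. Its values in lymphoma mice 1 to 8 were 0.03, 0.27, 0.26, 0.20, 0.14, 0.09, 0.28 and 0.03. In the no-lymphoma mice they ran from -0.77 to 0.37 with a median of 0.04. The lymphoma mice were all above 0 and close together, and the no-lymphoma mice spread further. Above the lymphoma mice lay only the array labelled no-lymphoma mouse 1 (0.37), whose Atm probe had the opposite sign. The next highest no-lymphoma value, 0.21 in mouse 14, was inside the lymphoma range.

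No-lymphoma mouse 2 had a loss of 17.9 Mb from 3152146 to 21031097, in 8 segments, with the segment over Ikzf1 at -0.91. All 11 probes of Ikzf1 were low there, from -1.03 to -0.45, and the gene stood at 0.586 times the wildtype level. The array labelled no-lymphoma mouse 1, whose Atm probe had the opposite sign, had a gain from 3078911 to 19762441, with 0.42 in the segment over the gene and 0.37 as the gene's value. With normexp the gene's value was -0.66 in mouse 2 and 0.15 in the array labelled mouse 1, and both calls were made. With the sign of the array labelled mouse 1 turned, as its Atm probe would have it, its gene value is -0.37 and its segment -0.42, a loss.

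In no-lymphoma mouse 11 the DNA on both sides of Ikzf1 was called lost, and whether the gene was called with it depended on the segmentation. With the penalty used here the gene lay in a short stretch of its own. With a penalty of 6 in place of 3 its segment was at -0.36, and with normexp at -0.25, so that both settings called the gene lost. A loss at -0.42 ran from 9006321 to 11574802, and further losses at -0.32 from 11721888 to 12385349 and at -0.54 from 12392558 to 19869401. Between them lay 16 probes from 11588109 to 11713398 at 0.04, among them 10 of the 11 probes of Ikzf1 and the 5 probes of the transcript record AK040327 (-0.04). The last probe of Ikzf1, at 11721888, was the first of the next lost segment, with -0.58. That segment also held Fignl1, a gene related to fidgetin (-0.12), Ddc, the enzyme that makes dopamine and serotonin (-0.46), and Grb10, an adaptor that dampens insulin signalling (-0.37). The boundary probes printed above were uneven: in mouse 11 the last lost probe before the stretch had -0.38, the first probe of the stretch -0.12 and the last one 0.26.

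The stretch over Ikzf1 minus the mean of its neighbours was 0.42 in no-lymphoma mouse 11. In the other 21 mice, whose segments did not break at the ends of this stretch, the same difference ran from -0.23 to 0.27 with a median of 0.08. Some of them had segment ends inside the neighbouring stretches, so they are not an unbroken baseline. The next highest, lymphoma mouse 2 at 0.27, had a segment at 0.17 from 11218836 to 11842122. Lymphoma mouse 5 had one at 0.12 from 11411707 to 11864364, and lymphoma mouse 7 one at 0.15 from 11278916 to 12226416. The ends of the stretch were set by the segmentation of mouse 11 itself, so its place as the highest of the 22 was favoured by that choice and is a description. With normexp the difference was 0.34 in mouse 11 and 0.19 in lymphoma mouse 2.

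**Figure D2:**
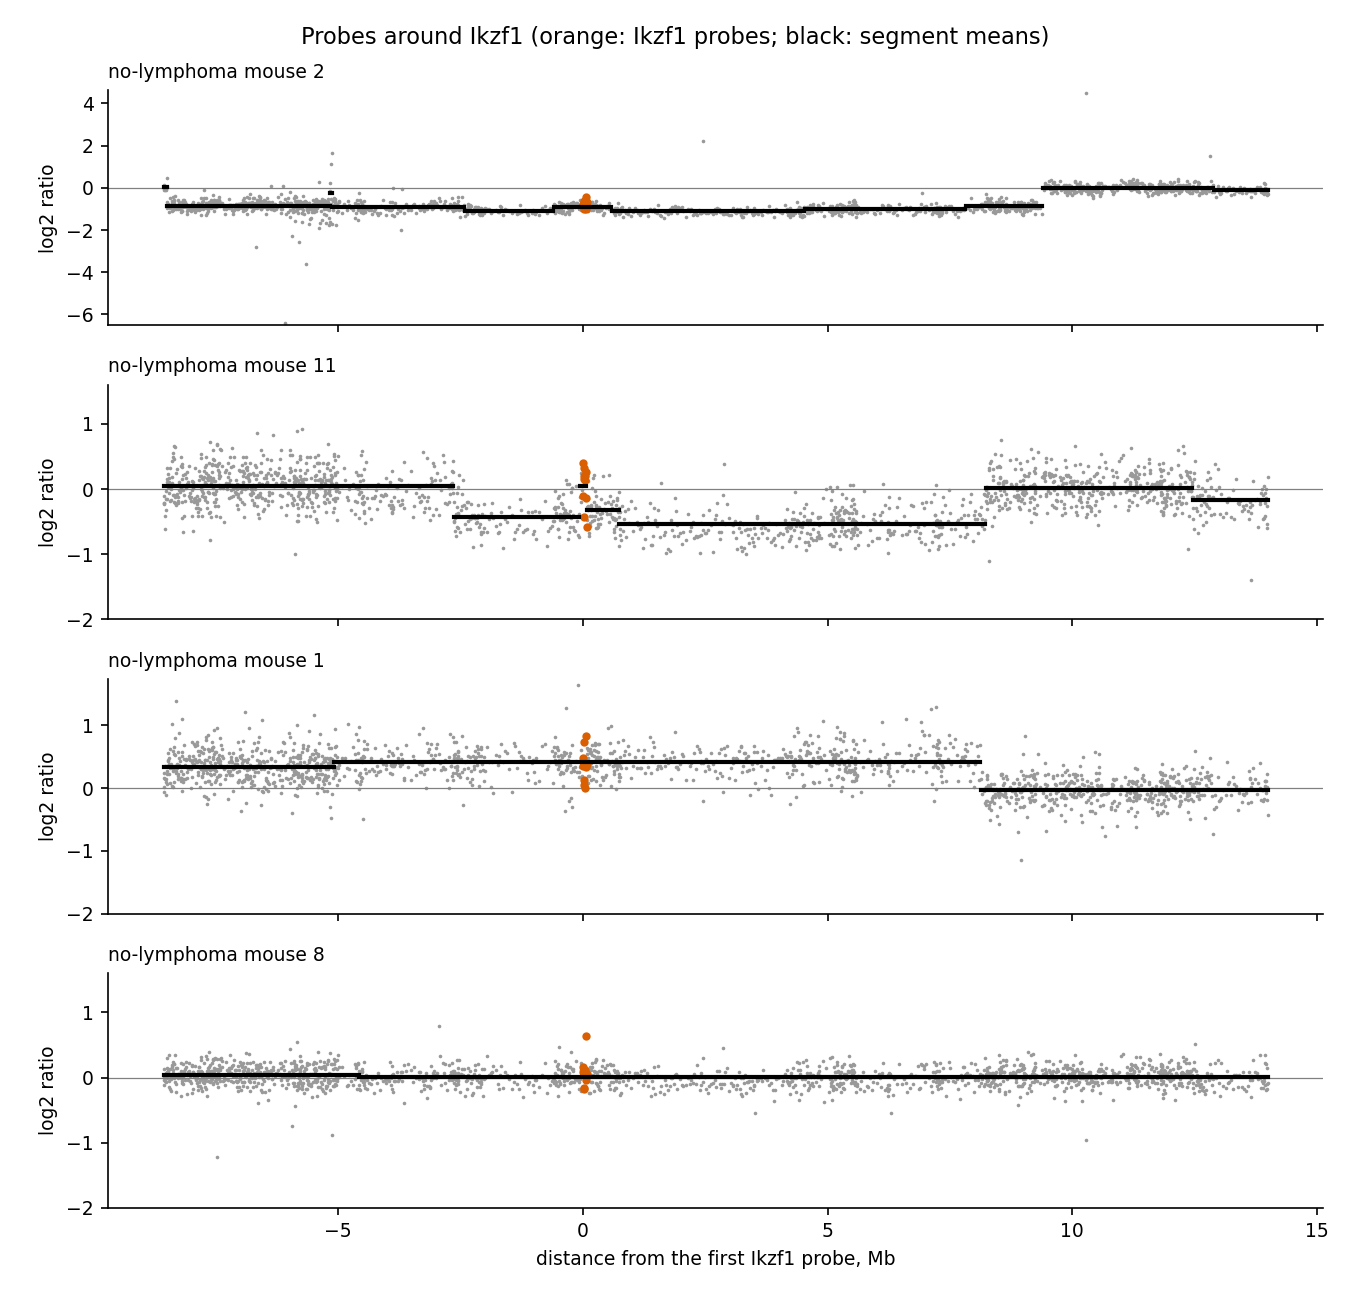
Log2 ratio of each probe (grey points) against its distance in Mb from the first Ikzf1 probe in no-lymphoma mice 2, 11, 1 (the array so labelled) and 8, with the 11 Ikzf1 probes in orange and segment means as black lines. The proximal part of the chromosome is lost in mouse 2 with Ikzf1 at -0.91, lost on both sides of a short stretch at 0.04 in mouse 11 (with the segmentation penalty used here), gained at 0.42 in the array labelled mouse 1 and near 0 in mouse 8.

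Gata3 was called gained in 3 mice, each time inside a gain of 23.5 to 37.4 Mb of proximal chromosome 2. The gene lies at chr2:9797092-9812663 and has 3 probes. Its values in lymphoma mice 1 to 8 were 0.61, 0.88, 0.28, 0.29, 0.20, 0.24, 0.29 and 0.12. In the no-lymphoma mice they ran from -0.35 in the array labelled mouse 3 to 0.63 in mouse 11, with a median of 0.11. All 8 lymphoma mice were above 0, and 9 of the 14 no-lymphoma mice lay below the lowest of them.

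In lymphoma mouse 1 the gain reached from 3010301, the first probe of the chromosome, to 26501946, with the segment over Gata3 at 0.55. Its level rose away from Gata3 to 2.19 between 25995288 and 26501946 and fell to 0.10 beyond. In lymphoma mouse 2 it reached from 3010301 to 40447809 in 17 segments, with 0.66 over Gata3 and 0.85 in the highest segment, from 6585653 to 7031654. In no-lymphoma mouse 11 it reached from 5650560 to 34509246, with 0.38 over Gata3. None of the 3 gains was highest at Gata3. In genes with at least 3 probes a gain in 2 or more lymphoma arrays was found for 13.6%. The gene was above its flanks in each of the 3 mice, by 0.09, 0.25 and 0.19, and by 0.37 in no-lymphoma mouse 12, whose flanks were at 0.00. Gene minus flanks was -0.42 in the array labelled no-lymphoma mouse 3, -0.37 in that labelled mouse 4 and -0.27 in mouse 9, where the second of its 3 probes read -1.06, -0.82 and -0.40.

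**Figure D3:**
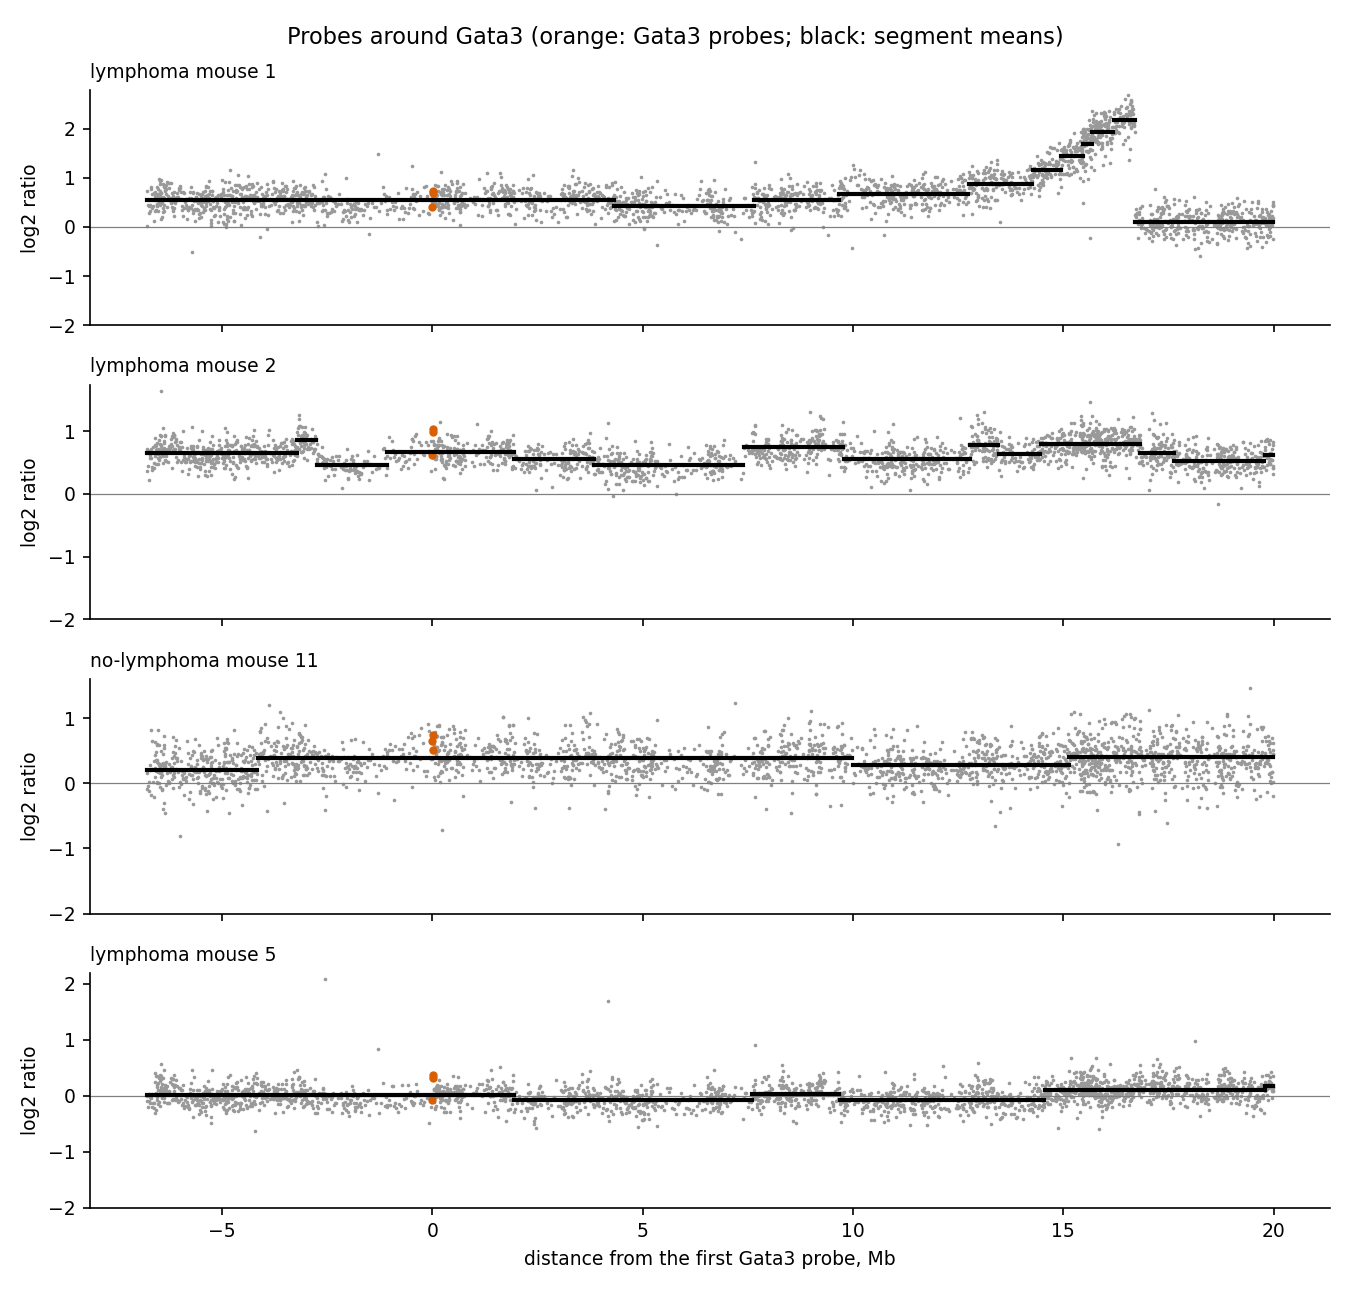
Log2 ratio of each probe (grey points) against its distance in Mb from the first Gata3 probe in 4 mice (lymphoma 1 and 2, no-lymphoma 11, lymphoma 5), with the 3 Gata3 probes in orange and segment means as black lines. Gata3 lies in a gain at 0.55, 0.66 and 0.38 in the first 3 mice, highest away from the gene in lymphoma mouse 1 (2.19), and near 0 in lymphoma mouse 5.

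Tcf7 was called gained in 1 mouse, lymphoma mouse 2, in a segment of 0.33 Mb, and this call was lost with normexp (0.13) and with a segmentation penalty of 6 (0.15). With centring on the mode lymphoma mouse 3 was called as well (0.25). The gene lies at chr11:52210698-52228873 and has 3 probes. Its values in lymphoma mice 1 to 8 were 0.01, 0.29, 0.44, 0.10, 0.14, -0.23, 0.25 and 0.30. In the no-lymphoma mice they ran from -0.61 to 0.20 with a median of -0.09. The 3 lowest were the array labelled no-lymphoma mouse 3 (-0.61), that labelled mouse 4 (-0.43) and mouse 9 (-0.51), and 4 lymphoma mice lay above the highest no-lymphoma mouse.

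The called segment was that of lymphoma mouse 2, at 0.33 over 43 probes from 51990327 to 52317047, with 0.15 before it and 0.13 after it. It also held Ppp2ca, a catalytic subunit of protein phosphatase 2A (0.77), and Skp1, a subunit of SCF ubiquitin ligases (0.37), so Tcf7 (0.29) was not its highest gene. Lymphoma mice 5 and 7 had segments of 0.17 and 0.21 over the gene, below the limit. The flanks of Tcf7 were above 0 in all 8 lymphoma mice, from 0.05 to 0.16, and ran from -0.10 to 0.10 in the no-lymphoma mice. The last probe of the gene, at 52228814, read -0.91 in lymphoma mouse 6 and 1.05 in lymphoma mouse 8, while the first probe read 0.18 and 0.17 in these mice.

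Myb and Etv6 were called neither gained nor lost in any mouse. Myb lies at chr10:20852173-20887038 with 6 probes, and its segment means ran from -0.08 to 0.17. Its values in lymphoma mice 1 to 8 were 0.25, 0.18, 0.26, 0.10, 0.11, 0.08, 0.22 and 0.13. The no-lymphoma mice ran from -0.18 to 0.31 with a median of -0.01, and 10 of the 14 lay below the lowest lymphoma mouse. Single probes went further: the fourth probe read 1.22 in no-lymphoma mouse 13, -1.55 in mouse 14 and -0.95 in mouse 7, and the last probe read 1.34 in lymphoma mouse 1.

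Etv6 lies at chr6:134057541-134283503 with 32 probes, the most of the 6 genes, and its segment means ran from -0.05 to 0.10. Its values ran from 0.01 to 0.12 with a median of 0.09 in the lymphoma mice and from -0.05 to 0.14 with a median of 0.03 in the no-lymphoma mice. Its values, each a mean over the most probes, varied least of the 6 genes, and both groups overlapped over most of their range.

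In all, 7 of 132 pairs of a member and an array (5.30%) carried a segment call, against 6.15% over all genes with at least 3 probes (4.57% gains and 1.58% losses). They came from 2 of 8 lymphoma mice (mice 1 and 2, with 4 gains) and 3 of 14 no-lymphoma mice (with 2 gains and 1 loss). Without the 5 arrays of a low or opposite Atm probe there were 6 calls in 102 pairs, against 7.57% over all genes, with 1 gain and 1 loss in 2 of 9 no-lymphoma mice. Without no-lymphoma mice 3, 4 and 9 the 7 calls stood among 114 pairs, against 6.89%. A gain in at least 1 lymphoma mouse was found for 3 of the 6 members, against 28.9% of all genes, and a loss in at least 1 no-lymphoma mouse for 1 of the 6, against 9.2%. No member's calls differed between the groups by Fisher's exact test (two-sided, the lowest p being 0.364, adjusted p = 1 over all genes and both directions), where 1.52% of all gene and direction pairs passed. With a limit of 0.15 in place of 0.25 there were 14 calls, and the 7 additional ones were gains in lymphoma mice: Tcf7 in mice 5 and 7, Ikzf1 in mouse 2, Runx1 in mice 3, 7 and 8, and Myb in mouse 2. The shares over all genes given above belong to the limit of 0.25. No share is given for 0.15, so the 14 calls cannot be read as particular to the members.

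**Figure D4:**
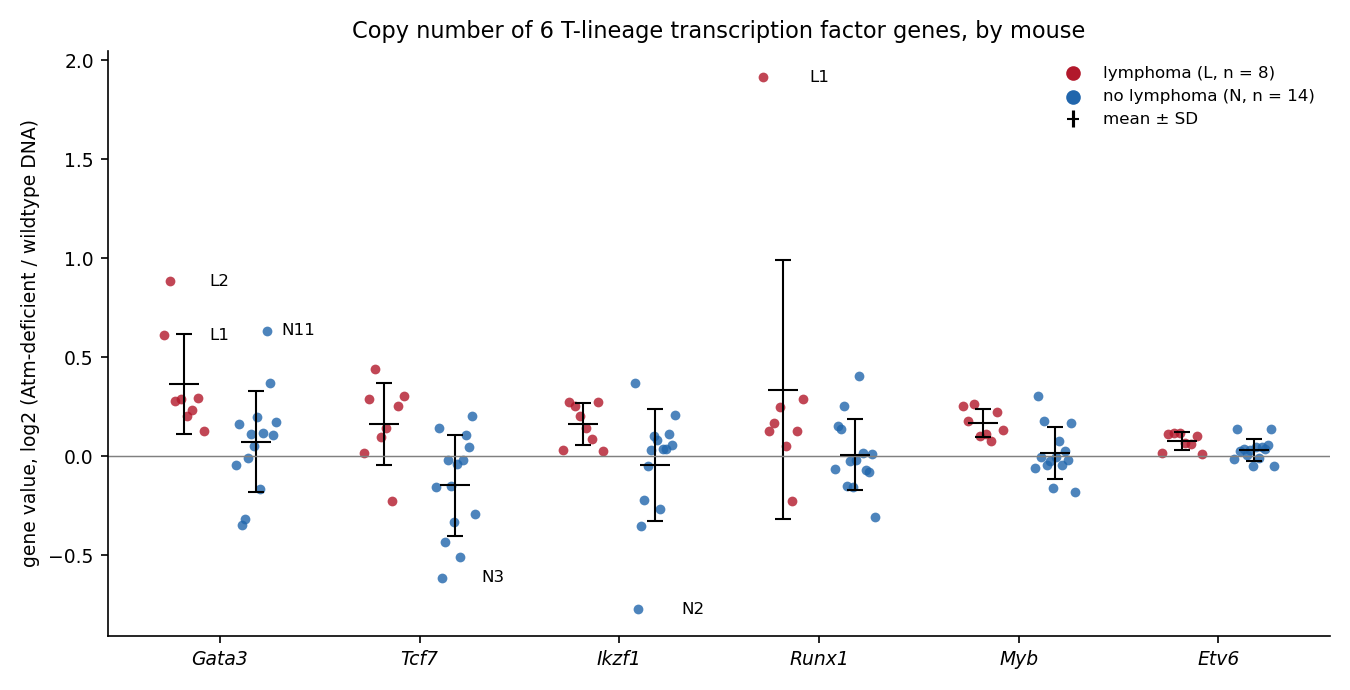
Gene value (mean log2 ratio of its probes, Atm-deficient over wildtype DNA) of each of the 6 genes in each mouse, lymphoma in red (n = 8) and no lymphoma in blue (n = 14), with mean and SD in black. The points that stand apart are Runx1 in lymphoma mouse 1 (1.91), Ikzf1 in no-lymphoma mouse 2 (-0.77) and Gata3 at 0.61 in lymphoma mouse 1, 0.88 in lymphoma mouse 2 and 0.63 in no-lymphoma mouse 11, and the groups overlap for each gene.

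Each of the 6 genes had a higher mean in the lymphoma mice, but none passed the test over all genes. Gata3 was at 0.36 ± 0.25 (SD, n = 8) against 0.07 ± 0.26 (SD, n = 14), a difference of 0.29 (limma adjusted p = 0.0924; exact two-sided permutation p = 0.0168). Tcf7 was at 0.16 ± 0.21 against -0.15 ± 0.25, a difference of 0.31 (limma adjusted p = 0.0544; exact permutation p = 0.00843). Myb was at 0.17 ± 0.07 against 0.02 ± 0.13, a difference of 0.15 (limma adjusted p = 0.0629; exact permutation p = 0.00755). These 3 of 6 genes had an unadjusted limma p below 0.05, against 26.1% of all genes.

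Ikzf1 was at 0.16 ± 0.10 against -0.04 ± 0.28 in the same groups, a difference of 0.21 (limma adjusted p = 0.192; exact permutation p = 0.0541). Runx1 was at 0.34 ± 0.66 against 0.01 ± 0.18, a difference of 0.33 (limma adjusted p = 0.232; exact permutation p = 0.0436). Etv6 was at 0.08 ± 0.04 against 0.03 ± 0.06, a difference of 0.05 (limma adjusted p = 0.312; exact permutation p = 0.0601). Without lymphoma mouse 1 the difference of Runx1 was 0.10 (limma adjusted p = 0.417), so the group difference of this gene was mostly that of 1 mouse.

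Over all 12986 genes, 9.19% passed this test (6.68% as higher in the lymphoma mice), so 0 of 6 is close to what the background gives. The difference was positive for 67.6% of all genes, and its median was 0.25 over the 6 members and 0.05 over all genes. The calls of the 3 nearest genes turned on single arrays. Tcf7 passed without lymphoma mouse 6 (adjusted p = 0.0177) and without no-lymphoma mouse 2, 11 or 13 (0.0343, 0.0345 and 0.0338). Myb passed without lymphoma mouse 6 (0.0447), without no-lymphoma mouse 2 or 13 (0.0125 and 0.0440) and without the array labelled no-lymphoma mouse 4 (0.0461), and Gata3 without no-lymphoma mouse 11 (0.0246). Against the wildtype reference, that is against 0, the lymphoma mean passed for Gata3, Myb and Etv6 (limma adjusted p = 0.00233, 0.00291 and 0.0126), 3 of 6 genes against 35.9% of all genes.

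The arrays were scanned in 6 batches, 4 of which hold both groups. With the batch as a block the differences were 0.21 for Gata3, 0.18 for Tcf7, 0.29 for Ikzf1, 0.30 for Runx1, 0.09 for Myb and 0.01 for Etv6. The exact permutation within batches gave p = 0.0278 for Ikzf1, 0.160 for Myb, 0.191 for Gata3 and Tcf7, 0.253 for Runx1 and 0.788 for Etv6. With the block 0 of 6 passed limma, and fewer of all genes passed as well, as given in the last section. Within the 4 mixed batches, in the order of batches 1, 3, 5 and 6, Gata3 differed by 0.23, 0.49, -0.16 and 0.16 and Tcf7 by 0.04, 0.30, 0.48 and -0.19. Ikzf1 differed by 0.93, 0.22, -0.09 and 0.12, and the no-lymphoma mouse of batch 1 is mouse 2, with the loss of Ikzf1. Runx1 differed by 0.63, 0.17, 0.46 and -0.06, Myb by -0.10, 0.18, 0.24 and -0.02, and Etv6 by -0.05, 0.07, 0.03 and -0.05. No member differed in 1 direction in all 4 batches. In the same order these batches held 3, 2, 1 and 2 lymphoma mice and 1, 2, 3 and 1 no-lymphoma mice. Most of these differences rest on a single mouse in 1 group, so their signs are a description only. Without no-lymphoma mice 3, 4 and 9 (3 and 4 as labelled) the differences were 0.20 for Gata3, 0.21 for Tcf7, 0.14 for Ikzf1, 0.40 for Runx1, 0.17 for Myb and 0.04 for Etv6. Exact permutations without these mice gave p = 0.00434 for Runx1, 0.00639 for Myb and 0.0282 for Tcf7. For Gata3, Etv6 and Ikzf1 these permutations gave p = 0.0683, 0.118 and 0.194. In limma 0 of 6 passed, and no share over all genes is given for this setting.

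The gene value minus its flanks measures the gene apart from its chromosome region. It was higher in the lymphoma mice by 0.17 for Gata3, 0.22 for Tcf7, 0.14 for Ikzf1, 0.10 for Myb and 0.06 for Etv6, and by -0.02 for Runx1. The limma adjusted p was 0.475, 0.40, 0.496, 0.495, 0.406 and 0.948 for these genes in the same order. None of 6 passed, and over all genes 0.0154% did. At an unadjusted p below 0.05 there were 3 of 6, against 10.4% of all genes. The differences were smaller with the scan batch as a block, at 0.073 for Gata3, 0.13 for Tcf7, 0.039 for Ikzf1, 0.050 for Myb and 0.024 for Etv6. Without no-lymphoma mice 3, 4 and 9 they were 0.066, 0.13, 0.057, 0.13 and 0.047 in the same order. Against 0, the lymphoma mean of this value was 0.19 for Gata3, 0.16 for Ikzf1, 0.10 for Myb, 0.06 for Etv6, 0.05 for Tcf7 and -0.03 for Runx1. In Gata3, Ikzf1, Myb and Etv6 it was above 0 in 8 of 8 lymphoma mice. The share of all genes for which this holds is not given, so it is a description only.

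None of these means against 0 passed (limma adjusted p = 0.0571 for Gata3, 0.0733 for Ikzf1 and 0.0668 for Etv6, and 0.127 or more for the others), where 10.5% of all genes did. Here too single arrays decided. Gata3 passed without the array labelled no-lymphoma mouse 3 (adjusted p = 0.0243) or 4 (0.0332) and without mouse 9 (0.0441) or 12 (0.0427), and Ikzf1 without the array labelled mouse 3 (0.0401) and without mouse 11 (0.0389). Without no-lymphoma mice 3, 4 and 9 together Gata3 (0.000568), Ikzf1 (0.00658) and Etv6 (0.0285) passed. More of all genes passed in that setting as well, as given in the last section. The share of 10.5% belongs to the full set of arrays and is not the background of these calls. These arrays do not enter the lymphoma mean, only the spread of the fit.

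**Figure D5:**
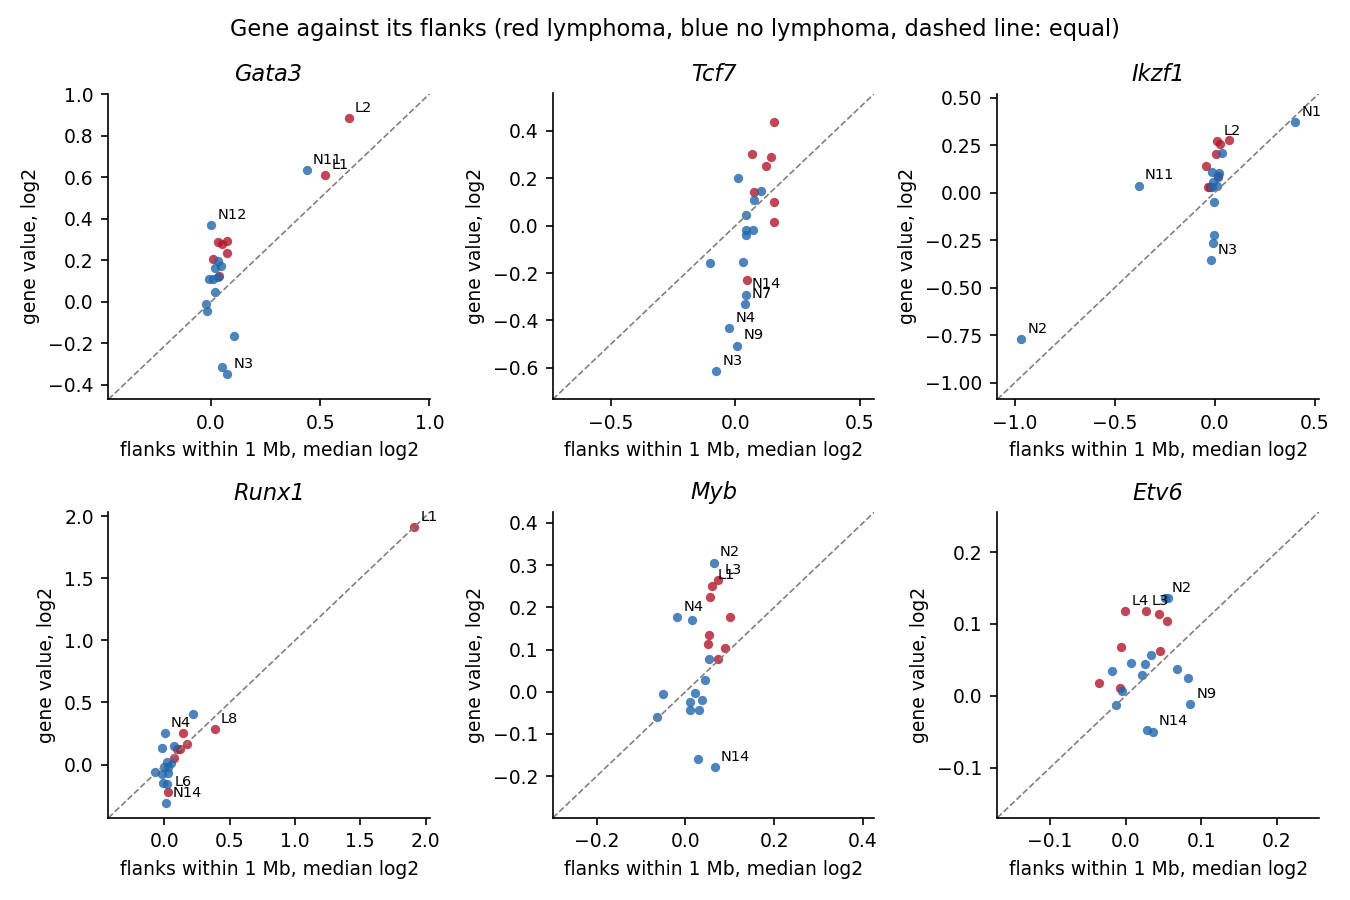
Gene value against the median of the probes within 1 Mb on either side, both as log2 ratios, for each gene and mouse (lymphoma red, no lymphoma blue, dashed line where both are equal). Runx1 in lymphoma mouse 1 (1.91 and 1.91) and Ikzf1 in no-lymphoma mouse 2 (-0.77 and -0.97) moved with their flanks, whereas Ikzf1 in no-lymphoma mouse 11 (0.04 and -0.38) lies off the line.

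A gene was called focal in a mouse when it differed from its flanks by more than 0.25 and by more than 3 times its noise. There were 6 such calls in 132 pairs (4.55%), against 2.84% over all genes. They were Gata3 in no-lymphoma mouse 12 (0.37), Tcf7 in no-lymphoma mouse 7 (-0.37), Ikzf1 in lymphoma mouse 2 (0.26) and no-lymphoma mouse 11 (0.42), and Runx1 in lymphoma mouse 6 (-0.25) and no-lymphoma mouse 14 (-0.32). They fell to both groups and to both directions, and over all genes 0 of 25970 gene and direction pairs passed Fisher's exact test after adjustment. With normexp 1 of the 6 was called, Ikzf1 in no-lymphoma mouse 11 (0.27).

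Windows of 3 neighbouring probes were called when they differed from the flanks by more than 0.5 and by more than 4 times their noise. There were 17 calls in 1210 pairs of a window and an array (1.40%), against 0.815% over all genes, and 5 of the 17 were higher. Etv6 had 7, all among its probes 2 to 6: no-lymphoma mouse 7 was lower by 0.53 to 0.66 in 3 windows, mouse 14 lower by 0.85 in 2, and mouse 13 higher by 0.57 and 0.53 in 2. Runx1 had 6, in lymphoma mouse 6 at probes 9 to 12 (-0.59 and -0.96), in no-lymphoma mouse 7 at probes 10 to 12 (-0.50), in mouse 14 at probes 5 to 7 and 10 to 12 (-0.62 and -0.70) and in the array labelled mouse 5 at probes 3 to 5 (-0.51). Ikzf1 had 3, all in no-lymphoma mouse 11 (0.53, 0.63 and 0.60), and Myb had 1, in no-lymphoma mouse 14 at its last 3 probes (-0.61). The 17 calls came from no-lymphoma mice 5, 7, 11, 13 and 14 and lymphoma mouse 6, and Gata3 and Tcf7, with 1 window each, had none.

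Single probes of the members deviated together in certain mice, across genes on different chromosomes. Over the 67 member probes, no-lymphoma mice 7 and 14 correlated at 0.87 (0.82 over all probes), and 10 of the 67 were low in both. These 10 lie in Etv6 (5 probes), Tcf7 and Runx1 (2 each) and Myb (1). They include the Runx1 probe at 92738587 (-0.71 and -1.20), the Myb probe at 20872202 (-0.95 and -1.55) and the Tcf7 probe at 52228814 (-0.58 and -0.69). Lymphoma mouse 6 correlated with no-lymphoma mouse 14 at 0.53 over the member probes (0.40 over all probes). Lymphoma mouse 6 was also low at the Runx1 probe at 92738587 (-1.52) and the Tcf7 probe at 52228814 (-0.91). At the rest of the 10 probes it read from -0.22 to 0.18. The array labelled no-lymphoma mouse 3, that labelled mouse 4 and mouse 9 correlated with each other at 0.86 to 0.94 over the member probes (0.82 to 0.87 over all probes). In all 3, 13 of the 67 probes stood apart in the same direction, among them the Runx1 probes at 92727013 (1.41, 1.55 and 1.88) and 92690380 (-1.25, -1.24 and -0.73). No share over all probes is given for these counts of 10 and 13. Among the probes of all genes, 36.5%, 31.5% and 34.2% lay beyond 0.5 from their flanks in these 3 arrays. In no-lymphoma mice 7 and 14 that share was 6.30% and 10.9%. Lymphoma mouse 3 ran against the array labelled no-lymphoma mouse 3 with r = -0.59 over the member probes (-0.44 over all probes), and had 1.17 at the Runx1 probe at 92690380. These correlations are over probes of 1 array design and share its reference DNA, and are given as a description. The part of these shared probe patterns in the focal and window calls of the same mice was not tested.

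At the level of single probes, 56 of the 67 member probes had a higher mean in the lymphoma group. The share over all probes is not given, but 67.6% of all genes had a higher lymphoma mean. Probes of 1 gene also share its copy number, so the 56 are not separate findings. None of the member probes passed limma after adjustment over all probes, where 3.14% of all probes passed. At an unadjusted p below 0.05 there were 13 of 67 (19.4%), close to the 16.7% of all probes. The largest difference within each gene was 0.56 ± 0.29 (SE) in Runx1 at 92690380, 0.55 ± 0.18 in Tcf7 at 52210698, 0.50 ± 0.19 in Gata3 at 9806104, 0.34 ± 0.16 in Myb at 20852173, 0.31 ± 0.10 in Ikzf1 at 11671515 and 0.31 ± 0.12 in Etv6 at 134213011. The smallest was 0.12 in Runx1 at 92727013, 0.09 in Gata3 at 9797092, 0.08 in Tcf7 at 52215108, 0.02 in Myb at 20878886, -0.06 in Ikzf1 at 11678128 and -0.19 in Etv6 at 134257908. The differences of single probes spread more within each gene than the gene differences spread between the 6 genes. A gene difference is a mean over 3 to 32 probes, and averaging narrows its spread, so this is a description only.

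Other genes of the same families and pathways were read from lists of relatives, Notch pathway genes, other T-cell transcription factors, leukaemia oncogenes and chromatin partners. These lists too were chosen with earlier results of these data known. Of 119 listed genes, 81 had at least 3 probes on the autosomes, and 3 were higher and 3 lower in the lymphoma mice (limma adjusted p below 0.05). That is 7.41% of the 81, against 9.19% of all genes, and their median difference was 0.08 against 0.05. Higher were Notch1, the receptor that drives T-cell fate (difference 0.70, adjusted p = 0.0462), Satb1, a chromatin organiser of thymocytes (0.24, adjusted p = 0.0288), and Ep300, a histone acetyltransferase (0.55, adjusted p = 0.000169). Lower were Bcl11b, which fixes T-cell commitment (-0.53, adjusted p = 0.00112), and the ETS gene Etv1 (-0.15, adjusted p = 0.0373) and Mef2c (-0.12, adjusted p = 0.0311). With the scan batch as a block Bcl11b (adjusted p = 0.0164) and Ep300 (0.0249) passed. After subtraction of the flanks 0 of the 81 passed. In the list nearest to the members, that of GATA, TCF/LEF, RUNX, MYB and ETS genes, 0 of 24 were higher and 1 was lower.

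The genes on other chromosomes whose values ran most like those of a member over the 22 arrays were found by Pearson correlation. They were Smu1 and Bag1 for Gata3 (0.87 each), Tjap1 (0.94) and AK180540 (0.93) for Tcf7, Snrnp200 (0.89) and Tdrp (0.88) for Ikzf1, Traf2 (0.90) and AK131831 (0.89) for Runx1, Cd2 (0.86) and Dclk2 (0.84) for Myb, and Sdc1 and Cxxc5 (0.92 each) for Etv6. Between the members themselves r ran from -0.25 (Ikzf1 and Myb) to 0.74 (Myb and Etv6). Arrays share noise and probe patterns as described above, and for Runx1 and Ikzf1 single mice set most of the spread, so these values are descriptions only.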

How the data were processed

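DNA of 22 mice was measured on 2-colour Agilent 244A mouse arrays, per the labels, after caesium chloride extraction, cutting with AluI and RsaI and Klenow labelling. The authors' Feature Extraction (version 9.1, per the submitters' processing notes; 9.1.3.1 per the file headers) gave background-subtracted, dye-normalized red and green processed signals, deposited as intensity. It also gave the deposited log10 ratio of red over green, which equals the series' deposited value table (largest difference 0; column medians -0.0199 to 0.0164, so that table is not centred on 0). No source used here names the build of the coordinates.

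The log2 ratio of the processed signals was taken, control spots and outlier spots (3 to 111 per array) were dropped, repeated spots were combined as their mean, and the autosomal median of an array was set to 0, with no loess, since most probes carry signal. The RefSeq table (GRCm38.p6) gave current names for 12191 of 25811 gene names by symbol, 3604 by synonym and 1 by accession, and 10015 kept the files' name. Gene values were means of at least 3 probes, and flanks the median of the probes within 1 Mb outside the gene. Segments came from least squares with a penalty of 3 and at least 5 probes, called at a mean of 0.25 or more in size at the gene's midpoint. Groups were compared with limma 3.58.1 in R 4.3.3, Benjamini-Hochberg adjusted over all genes or probes, with exact two-sided permutations of a member's difference (319770 splits; 288 within scan batches) and with Fisher's exact test for calls. Python 3.11.15, numpy 2.4.6, pandas 2.3.3 and scipy 1.17.1 were used, and the steps were tested on simulated data. The labels do not say whether mice were related.

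Alternatives were mode centring, normexp on the deposited intensities (median signals, offset 50, without spots of very high local background; its probe values correlated with those used here at 0.24 to 0.93 per array), the value table, dim spots left out, probe medians, other flanks and limits, a segmentation penalty of 6, the scan batch as a block, arrays left out or turned, and, added after the data were seen, a probe GC correction, leaving out no-lymphoma mice 3, 4 and 9 together, and, for segment calls, leaving out the 5 arrays of a low or opposite Atm probe or turning the array labelled no-lymphoma mouse 1. The 6 genes and all lists were chosen with earlier results of these data known. Named were the 6 genes, listed genes that passed limma, the 2 genes on other chromosomes most like each member, and the probes of each member with the largest and smallest difference. Neighbours inside called segments were named after their values were seen.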

Additional observations from a re-analysis of the deposited data

Results flagged for a closer look

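For each of the 6 genes, the 8 lymphoma mice were checked for a mouse far from the others, once in the gene value and once in the value minus flanks (12 checks; chance marks about 1 in 20). The 14 no-lymphoma mice, a group of more than 10, were not checked. Runx1 in lymphoma mouse 1, at 1.91, was the only one marked: its gap to the next lymphoma mouse was 0.76 of the whole range of the group. All 12 probes of the gene and its flanks were raised in this mouse.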

How the results depend on the processing

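No paired analysis was possible because the labels carry no replicate numbers by which mice of the groups are paired.

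The count of 0 members whose gene value passed between the groups became 1 with mode centring (Myb), 1 with the sign of no-lymphoma mice 3, 4 and 9 turned (Myb), 2 with probe medians (Gata3 and Tcf7), and 0 to 2 when single mice were left out. For the value minus flanks between the groups it was 0 under each alternative. Against 0 it was 0, but 2 without the 5 arrays whose Atm probe was low or of opposite sign (the 5 low-Atm arrays), 2 with the sign turned, 3 without no-lymphoma mice 3, 4 and 9, 2 with probe medians, 4 with flanks of 2 Mb, and 0 to 2 with single mice left out. For probes it was 0, but 1 with mode centring, normexp or the sign turned, and 0 to 1 with single mice left out. The 6 focal calls became 1 with normexp, 12 with flanks of 2 Mb, 1 with a limit of 0.4, and 5 to 6 with single mice left out. The 17 window calls became 5 with normexp, 28 with flanks of 2 Mb and 7 with windows of 5 probes. The 7 segment calls became 14 with a limit of 0.15, 9 with mode centring (Tcf7 and Runx1 in lymphoma mouse 3 added) and 8 with normexp (the Tcf7 call gone, a loss of Ikzf1 in no-lymphoma mouse 11 and a gain of Runx1 in lymphoma mouse 3 added). With a penalty of 6 there were 7 again, without Tcf7 and with a loss of Ikzf1 in no-lymphoma mouse 11. There were 6 without the 5 low-Atm arrays, and 7 with the sign of the array labelled no-lymphoma mouse 1 turned, its gain of Ikzf1 then a loss.

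Values that changed sign were small. For Runx1 minus flanks the difference was -0.02, but 0.021 with the batch block, 0.022 without the 5 low-Atm arrays, 0.070 with the sign turned, 0.071 with flanks of 2 Mb, 0.043 without no-lymphoma mice 3, 4 and 9, and -0.039 to 0.017 with single mice left out (above 0 without lymphoma mouse 6, the array labelled no-lymphoma mouse 4 or mouse 9). Its lymphoma mean against 0 was 0.046 with flanks of 2 Mb, and -0.050 to 0.0017 with single mice left out. Against 0, Tcf7 was -0.062 with normexp and -0.014 with the batch block, and Myb -0.036 with normexp.

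Over all genes, the 1193 calls of the gene value were 426 with the batch block, 489 without the 5 low-Atm arrays and 790 to 1656 with single mice left out. The 2 calls minus flanks were 0 with the block, without those 5 arrays and without each group's noisiest array, 15 with normexp, 9 with the sign turned, 5 without mice 3, 4 and 9, and 0 to 5 with single mice left out. The 1359 against 0 were 588 with the block, 701 and 2259 with flanks of 0.5 and 2 Mb, 3112 with normexp, 2621 without mice 3, 4 and 9, and 699 to 1588 with single mice left out. The 6910 probe calls were 2309 with the block, 3361 without the 5 arrays, 13781 with the sign turned, 10633 without mice 3, 4 and 9, and 4832 to 9502 with single mice left out. The cause of these changes was not tested. Genes with 3 probes (Gata3, Tcf7) rest on the fewest signals.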
